A study of Mus musculus with 71 samples.

Results

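The transition from the DN2b to the DN3a stage of mouse thymocyte development was examined by poly(A) RNA sequencing. Genes were described if they exceeded 1 TPM, a unit of transcript abundance corrected for gene length and depth, in at least 1 of 5 libraries, which gave 12341 of the 24420 genes listed. The 2 DN3a libraries (experiments 12521 and 12522) were compared with the 3 DN2b libraries (experiments 14590, 14595 and 14597), and values are given below in this order. All 5 libraries came from wild-type cells of strain C57BL/6 that were isolated by flow-cytometric sorting directly from the thymus, and no agent was applied. The labels give no age, sex or number of animals per library. In the study, DN2b cells were sorted as CD25+ CD44+ cells with intermediate Kit and DN3a cells as Thy1.2+ CD25hi cells lacking CD44, CD28 and CD71. Genes encoding these sort markers follow from the gates and are not treated as results. The series holds 71 samples described here, of which 15 are wild-type lymphoid libraries with values of the same kind and 2 are libraries of Rag2(-/-) DN3a cells.

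T cell progenitors pass through CD4-CD8- double-negative (DN) stages in the thymus. DN2b cells have just committed to the T cell lineage under Notch signaling, and DN3a cells rearrange the T cell receptor β gene with the RAG1-RAG2 recombinase. A successful rearrangement gives a β-chain that pairs with the invariant pre-Tα chain, encoded by Ptcra, and with the CD3 proteins to form the pre-T cell receptor (pre-TCR), whose signal selects cells for the DN3b stage.

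Replicate libraries resembled each other more than libraries of the other stage. Across genes, the Pearson correlation of log2 values was 0.975 between the DN3a libraries, 0.959 to 0.968 among the DN2b libraries and 0.880 to 0.898 between the stages, where genes are not independent replicates. Depth was estimated from the TPM steps at 26003320 and 30313370 reads in DN3a and at 14708758 to 18348686 reads in DN2b, at which 3 reads correspond to 0.0876 to 0.139 TPM for a gene of median length. Both DN3a libraries stood apart in 3 respects that the stage labels do not describe. They held little histone RNA and little of some other RNA without a poly(A) tail, they held Xist RNA together with RNA of Y-linked genes, and their values were higher for long genes and lower for short genes. Each is described beside the results that it moves with.

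Of the 12341 genes tested, 3434 genes (27.8%) were higher and 1492 genes (12.1%) were lower in DN3a than in DN2b cells at a limma adjusted p under 0.05. The study's stricter definition, which adds a difference exceeding 3-fold and a mean exceeding 5 TPM in either cell type, was met by 433 higher genes (3.51%) and 295 lower genes (2.39%), referred to as past the thresholds. The study further removed immunoglobulin and histone genes from such lists. With antigen receptor and histone genes taken out here, 410 higher and 246 lower genes were left. The libraries of the 2 stages did not overlap for 727 of the 728 genes past the thresholds, which compares with 68.4% of all genes tested. The median log2 fold change over all genes was 0.304, so the balance of the directions depends on scaling: higher genes made up 69.7% of the calls on the deposited scale and 44.5% after the libraries were scaled to 1 common median. Past the thresholds, the share of higher genes went from 59.5% to 39.1%. Of the 433 higher and 295 lower genes, 428 and 295 were still called in the same direction after median scaling. With DN3a experiment 12522 left out, 434 genes were higher and 395 lower, and with DN3a experiment 12521 left out these were 549 and 417, since 1 DN3a library then remained and was assumed to vary like the DN2b libraries. Without DN2b experiment 14590 the calls numbered 2276 higher and 1037 lower. After median scaling 16.1% of genes were higher and 20.1% lower, with 2.27% and 3.53% past the thresholds. The edgeR test on reads recovered from the files called 17.7% higher and 20.2% lower of 11438 genes, with 2.1% and 3.6% past the thresholds.

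**Figure D1:**
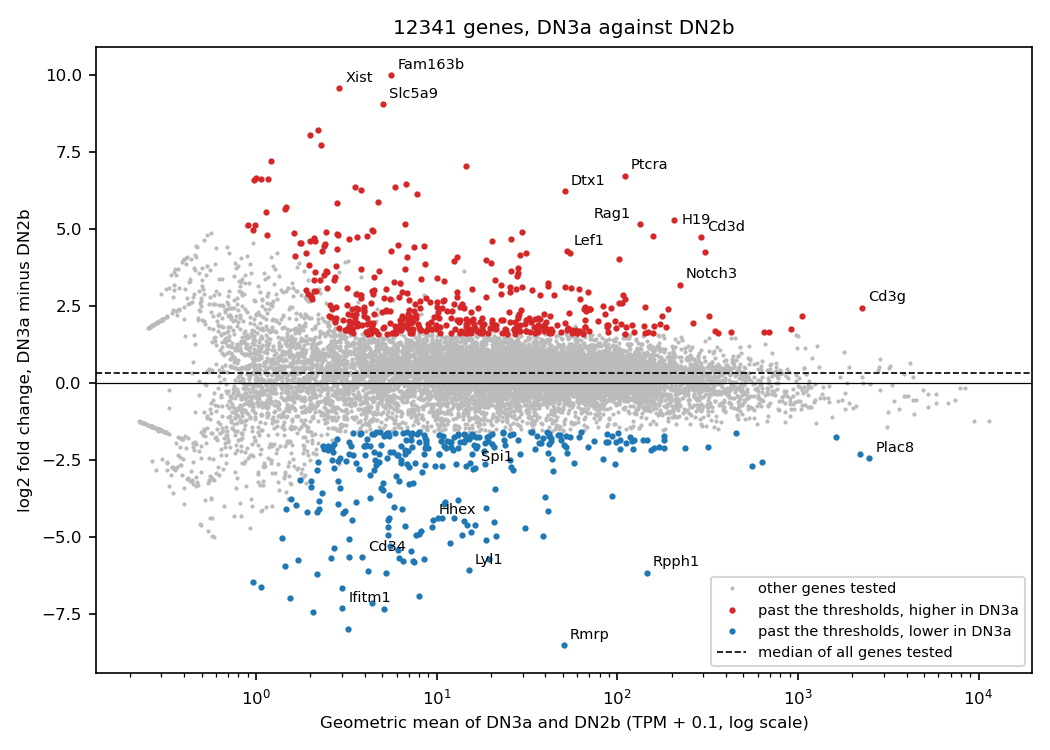
Log2 fold change of DN3a against DN2b (vertical axis, on log2(TPM + 0.1)) against the geometric mean level of both stages in TPM + 0.1 (horizontal axis, log scale), with 1 point per gene tested. Red and blue points are the 433 higher and 295 lower genes past the thresholds, and the dashed line is the median of all genes at 0.304.

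The recombinase and pre-TCR genes that define the DN3 stage were far higher in DN3a cells. Rag1, which encodes the catalytic subunit of the V(D)J recombinase, was at 622 and 972 TPM in DN3a and at 16.4, 24.1 and 26.3 TPM in DN2b libraries, a log2 fold change of 5.15 (standard error (SE) 0.265, adjusted p = 4.82e-05). Ptcra was at 890 and 1081 TPM in DN3a and at 6.19, 4.87 and 25.5 TPM in DN2b libraries, a log2 fold change of 6.72 (SE 0.615, adjusted p = 0.000344). The libraries of both stages were well separated for these genes, and experiment 14597 was the highest of the DN2b libraries for both. Rag1 and Ptcra were the markers given for the stage, and a change in either can reflect more cells that express the gene or more RNA per cell, which cannot be told apart in sorted populations. Of the 8 stage markers listed, 4 rose (Rag1, Ptcra, Notch3 and Dtx1), 3 fell (Spi1, Lyl1 and Lmo2) and Bcl11a was not called at 10.3 and 12.6 against 12.4, 13.4 and 12.2 TPM.

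**Figure D2:**
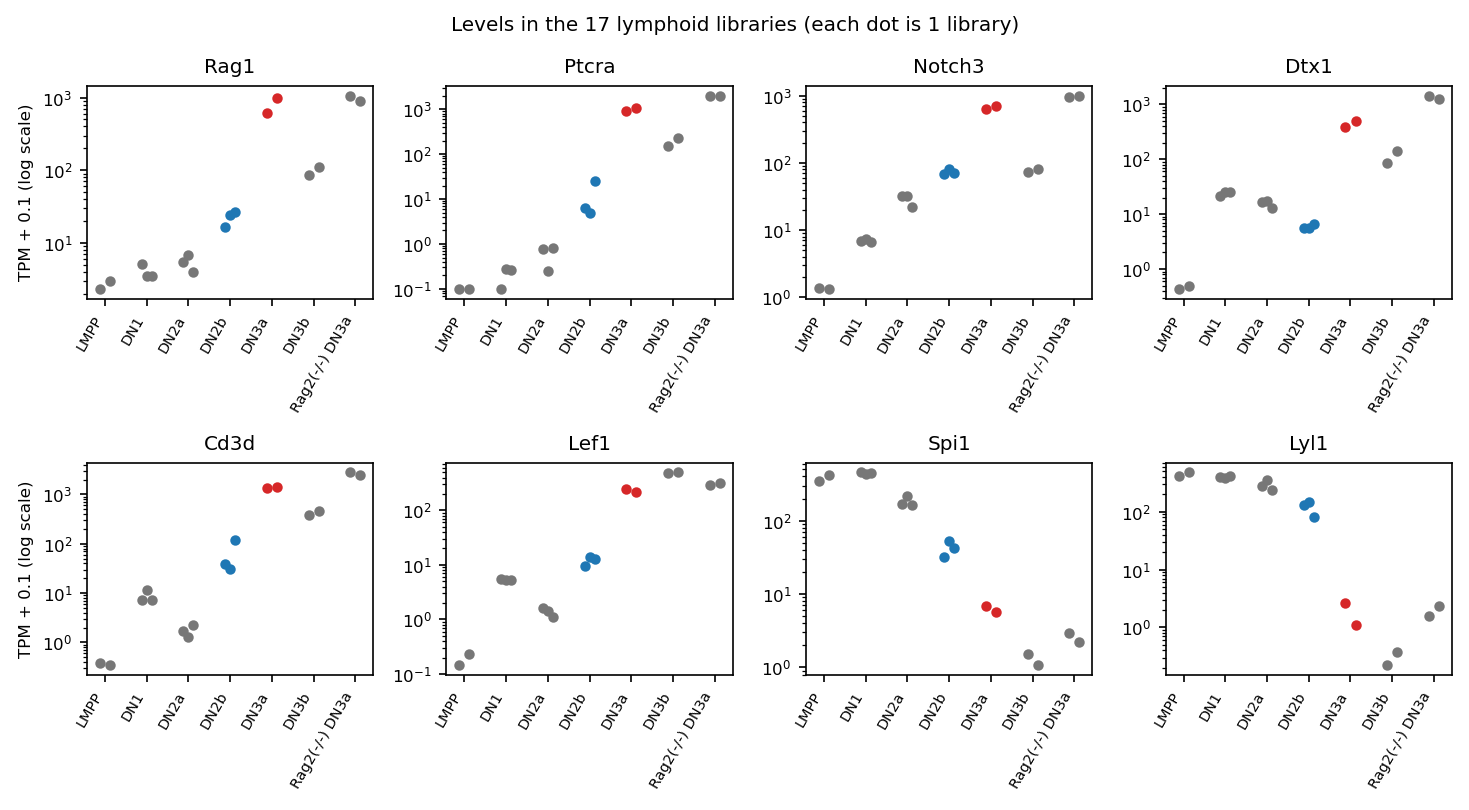
Levels of 8 genes in the 17 lymphoid libraries, with TPM + 0.1 on a log scale (vertical axis) by cell type (horizontal axis) and 1 dot per library (blue, DN2b; red, DN3a; grey, other cell types). The red dots lie above the blue dots for Rag1, Ptcra, Notch3, Dtx1, Cd3d and Lef1 and below them for Spi1 and Lyl1.

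The promoters of 4 genes with large increases and of 2 genes with a large decrease are shown to place known binding motifs relative to the start site. The sequences are the 250 bases before the start site from RefSeq on GRCm38.p6, read on the strand of the gene, with capitals for matches on either strand to the E box CANNTG (bound by E proteins), the Runx motif TGTGGT, the GATA motif AGATAA, the Tcf/Lef motif CTTTGA and the Rbpj motif TGGGAA.
Rag1 (chr2:101649533-101649782, minus strand): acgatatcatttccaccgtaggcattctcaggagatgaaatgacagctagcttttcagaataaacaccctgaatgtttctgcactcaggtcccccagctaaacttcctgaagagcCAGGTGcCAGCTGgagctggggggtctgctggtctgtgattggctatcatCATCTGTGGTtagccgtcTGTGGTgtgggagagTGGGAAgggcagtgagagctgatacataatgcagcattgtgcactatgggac
Ptcra (chr17:46763713-46763962, minus strand): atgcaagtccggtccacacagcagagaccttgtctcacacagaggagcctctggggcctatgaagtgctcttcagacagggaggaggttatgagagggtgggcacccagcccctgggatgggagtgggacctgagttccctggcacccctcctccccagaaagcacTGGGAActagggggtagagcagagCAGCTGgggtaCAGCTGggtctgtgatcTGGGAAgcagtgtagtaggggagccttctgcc
Notch3 (chr17:32166891-32167140, minus strand): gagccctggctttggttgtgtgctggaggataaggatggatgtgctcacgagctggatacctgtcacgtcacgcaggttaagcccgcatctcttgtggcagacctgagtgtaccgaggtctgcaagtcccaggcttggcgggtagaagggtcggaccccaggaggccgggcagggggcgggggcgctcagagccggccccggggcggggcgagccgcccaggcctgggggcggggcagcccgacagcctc
Dtx1 (chr5:120711670-120711919, minus strand): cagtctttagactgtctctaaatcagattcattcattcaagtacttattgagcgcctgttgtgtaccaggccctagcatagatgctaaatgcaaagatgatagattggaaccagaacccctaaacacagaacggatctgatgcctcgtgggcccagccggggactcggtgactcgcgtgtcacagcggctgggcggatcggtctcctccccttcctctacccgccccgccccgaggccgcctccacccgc
Lyl1 (chr8:84701207-84701456, plus strand): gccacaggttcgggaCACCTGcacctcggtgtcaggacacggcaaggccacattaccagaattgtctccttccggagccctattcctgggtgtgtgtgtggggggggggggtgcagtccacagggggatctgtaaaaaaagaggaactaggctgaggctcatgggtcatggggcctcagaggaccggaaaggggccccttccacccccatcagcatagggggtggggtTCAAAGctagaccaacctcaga
Hhex (chr19:37434591-37434840, plus strand): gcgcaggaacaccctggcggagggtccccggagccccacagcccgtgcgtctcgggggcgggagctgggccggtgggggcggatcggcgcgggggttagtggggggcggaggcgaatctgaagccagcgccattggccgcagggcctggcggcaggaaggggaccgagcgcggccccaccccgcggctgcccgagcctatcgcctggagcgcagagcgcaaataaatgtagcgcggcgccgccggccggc
The Rag1 window held 3 E boxes, 2 Runx motifs and 1 Rbpj motif, one of the Runx matches overlapping an E box, and the Ptcra window held 2 E boxes and 2 Rbpj motifs. The Lyl1 window held 1 E box and 1 Tcf/Lef motif, and the Notch3, Dtx1 and Hhex windows held no match to these letters. These motifs are short and frequent: an E box occurred in 56.7% of the 9533 promoters of genes tested, in 60% of those of higher and in 62.2% of those of lower genes past the thresholds. The respective shares were 11%, 8.20% and 12.9% for the Runx motif, 5.90%, 4.92% and 12% for the GATA motif, 10.9%, 11.8% and 10.6% for the Tcf/Lef motif and 20.1%, 18.0% and 20.7% for the Rbpj motif.

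Genes of the pre-TCR, the CD3 complex and the proximal kinases were mostly higher in DN3a cells. Of 24 genes tested, 18 rose and 1 (Cd5) fell, and their median log2 fold change was 1.00, compared with 27.8% higher, 12.1% lower and a median of 0.304 over all genes. The counts of each gene list below are to be read beside these values. The CD3 chains, which transmit the signal of the receptor, were already expressed in DN2b cells. Cd3d went from 38.1, 30.0 and 118 TPM in DN2b to 1320 and 1402 TPM in DN3a libraries (log2 fold change 4.73, SE 0.509, adjusted p = 0.000627). Cd3g was at 4975 and 5383 TPM in DN3a and at 803, 770 and 1411 TPM in DN2b libraries, and Cd3e was at 2181 and 2219 against 350, 463 and 714 TPM. In all 3 CD3 genes and in Ptcra, DN2b experiment 14597 was the library closest to DN3a. The kinase genes changed less: Lck, which phosphorylates the CD3 chains, was at 2639 and 2454 TPM in DN3a and at 1188, 1168 and 1468 TPM in DN2b libraries (log2 fold change 1.00), and Zap70, the kinase recruited to phosphorylated CD3 chains, was at 83.7 and 63.9 against 31.6, 42.9 and 45.6 TPM. Themis, which acts downstream of the receptor in thymocytes, rose by 1.61 on the log2 scale from 30.5, 33.0 and 48.9 to 105 and 120 TPM. After median scaling 12 of the 24 genes rose, and the calls of Lck (adjusted p = 0.0514) and Zap70 (adjusted p = 0.0723) were lost. With experiment 12521 or 12522 left out, 6 and 5 genes of the list were called higher. The adjusted p of Cd3e was then 0.0520 and 0.0606, that of Themis 0.0513 and 0.0715, that of Lck 0.0794 and 0.0751 and that of Zap70 0.179 and 0.0983.

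Most genes of the V(D)J recombination machinery were higher in DN3a cells, by very different amounts. Of 15 genes tested, 11 rose and 2 (Hmgb2 and Nhej1) fell (27.8% and 12.1% over all genes), with a median log2 fold change of 0.927. Rag2, the partner of Rag1, was at 48.7 and 75.5 TPM in DN3a and at 8.20, 8.24 and 8.20 TPM in DN2b libraries (log2 fold change 2.87, SE 0.214, adjusted p = 0.000168), so its fold change was smaller than that of Rag1. Dclre1c, which encodes the hairpin-opening nuclease Artemis, was at 13.2 and 11.9 TPM against 5.04, 3.87 and 2.48 TPM. Dntt, which encodes terminal deoxynucleotidyl transferase that adds untemplated nucleotides to the joints, was abundant in both stages, at 3472 and 3214 TPM in DN3a and 1987, 2277 and 2787 TPM in DN2b libraries. Its difference of 0.521 on the log2 scale (adjusted p = 0.0436) did not hold after median scaling (adjusted p = 0.549). The DNA-bending protein gene Hmgb2, which is also a gene of dividing cells, fell from 232, 238 and 226 to 56.0 and 68.8 TPM. Median scaling left 9 higher and 4 lower, and removal of the length trend left 8 higher and 3 lower with a median of 0.403. The adjusted p of Dclre1c was 0.00444 with median scaling and 0.0144 with the length trend removed. With experiment 12521 or 12522 left out, most calls of the list were lost, including that of Dclre1c. Those of Rag1, Rag2 and Hmgb2 were kept. The adjusted p of Dntt without 1 library ranged from 0.0523 to 0.298 for all libraries but DN2b experiment 14597.

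The rearranging loci themselves changed as well. Of 55 antigen receptor features tested among 207 listed, 34 rose and 5 fell, with a median log2 fold change of 2.16. Over all genes 27.8% were higher and 12.1% lower. Some features, such as Trbv3, Trbv20 and Trbv29, passed the filter of 1 TPM only through the DN3a libraries. The counts and the median of these features therefore lean toward rises. For the T cell receptor β locus, 14 of 19 Vβ segments rose and 1 (Trbv13-2) fell. Trbv3 was at 13.9 and 15.6 TPM, Trbv20 at 9.22 and 10.9 TPM and Trbv29 at 8.31 and 10.7 TPM in DN3a libraries, and all 3 segments were listed at 0 in the 3 DN2b libraries. Trbv13-2 was the most abundant Vβ feature in both stages, at 965 and 808 TPM in DN3a and at 1427, 1600 and 1576 TPM in DN2b libraries, so that the summed Vβ level was 1371 and 1184 TPM in DN3a and 1579, 1723 and 1710 TPM in DN2b libraries. The feature Trbj1-7, which lies among the Jβ segments, fell from 2768, 1528 and 502 TPM to 196 and 196 TPM (log2 fold change -2.71, adjusted p = 0.0109), and its adjusted p was 0.138 and 0.155 without experiment 12521 or 12522. At the T cell receptor γ locus, 10 of 11 features rose and none was lower, and Trgv2 was at 1226 and 1361 TPM in DN3a against 54.5, 53.6 and 106 TPM in DN2b libraries. The summed level of γ features was 2879 and 3167 TPM in DN3a and 649, 758 and 656 TPM in DN2b libraries. Of 7 δ features 3 rose and 2 (Trdd2 and Trdj1) fell. Segments of these families are similar in sequence, and reads can be split between them in ways that the files do not show.

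Genes of the Notch pathway, which drives T cell commitment, rose in part. Of 19 genes tested, 10 rose and 1 (Nrarp) fell (27.8% and 12.1% over all genes), with a median log2 fold change of 0.553. Among the receptors, Notch3 was at 626 and 714 TPM in DN3a and at 68.7, 82.0 and 69.8 TPM in DN2b libraries (log2 fold change 3.19, SE 0.156, adjusted p = 3.91e-05), and Notch1 was at 1213 and 1216 against 377, 481 and 324 TPM (log2 fold change 1.64). Notch2 was not called, at 30.9 and 32.0 against 26.4, 40.7 and 23.7 TPM. The target genes did not move as one. Dtx1, which encodes an E3 ubiquitin ligase induced by Notch, rose from 5.46, 5.39 and 6.65 TPM to 392 and 491 TPM (log2 fold change 6.21, SE 0.183, adjusted p = 1.43e-05), and Hes1, which encodes a transcriptional repressor, rose from 186, 191 and 187 to 562 and 421 TPM (log2 fold change 1.37). In contrast Nrarp, a feedback inhibitor of Notch, fell from 29.5, 31.6 and 23.2 to 13.9 and 17.8 TPM (log2 fold change -0.822, adjusted p = 0.0170). After median scaling, 7 genes rose and 2 fell, and with the length trend removed 6 rose and 2 fell with a median of 0.230. The adjusted p of Hes1 was 0.0658 and 0.0524 with the spread estimated over 15 wild-type or 17 lymphoid libraries. After removal of experiment 12521 or 12522, 5 and 4 genes rose and none fell, and the adjusted p of Nrarp was 0.183 and 0.103. It was 0.0585 without DN2b experiment 14590.

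Transcription factor genes of the T cell lineage differed widely in their change. Of 25 T-lineage transcription factor genes tested, 12 rose and 3 (Runx2, Runx3 and Tox2) fell, with a median log2 fold change of 0.574. Over all genes the shares were 27.8% and 12.1%. Lef1, which encodes a factor of the same Tcf/Lef family as Tcf7, rose from 9.26, 14.1 and 12.7 to 244 and 217 TPM (log2 fold change 4.27, SE 0.209, adjusted p = 3.91e-05). Spib, encoding an Ets-family factor, rose from 10.6, 13.9 and 15.9 to 108 and 145 TPM (log2 fold change 3.22). Ets2 rose from 14.4, 21.7 and 13.9 to 108 and 128 TPM and Ikzf3, encoding Aiolos, from 0.146, 0.0693 and 0.143 to 6.04 and 5.81 TPM. A further group of genes central to T cell commitment was not called. Tcf7 was at 3270 and 3113 TPM in DN3a and at 2116, 3001 and 2146 TPM in DN2b libraries (adjusted p = 0.103), Bcl11b at 511 and 457 against 292, 439 and 267 TPM (adjusted p = 0.0755), Myb at 884 and 891 against 645, 780 and 494 TPM (adjusted p = 0.0823) and Gata3 at 212 and 174 against 175, 254 and 179 TPM (adjusted p = 0.843). In all 4 genes the DN2b library closest to or above DN3a was experiment 14595. Without it the adjusted p was 0.00373 for Tcf7, 0.00400 for Bcl11b and 0.0146 for Myb, and 0.455 for Gata3. Runx1 and Ets1 rose by 0.766 and 0.967 on the log2 scale, and their adjusted p was 0.147 and 0.0964 without experiment 12521 and 0.130 and 0.12 without experiment 12522. The log2 fold change of Runx1 was 0.244 (adjusted p = 0.154) with the length trend removed and 0.489 (adjusted p = 0.0611) by edgeR. Without either of these libraries 5 genes of the list rose and none fell, without DN2b experiment 14595 18 rose and 3 fell, with median scaling 9 rose and 6 fell, and with the length trend removed 8 rose and 6 fell with a median of 0.154.

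E proteins are basic helix-loop-helix factors that bind the E box and maintain the DN3 program, and Id proteins block their DNA binding. Of 6 genes tested, 5 rose and none fell (27.8% and 12.1% over all genes). Tcf12, encoding the E protein HEB, rose from 81.3, 112 and 78.2 to 263 and 286 TPM (log2 fold change 1.62, SE 0.192, adjusted p = 0.000944). Tcf3, encoding E2A, was at 374 and 356 against 293, 396 and 268 TPM and was not called, and its direction turned from 0.213 to -0.091 with median scaling. Without DN2b experiment 14595 its adjusted p was 0.0230. Id2 was at 22.3 and 28.7 against 17.7, 11.1 and 13.2 TPM and Id3 at 80.2 and 61.8 against 37.2, 34.8 and 52.2 TPM. With median scaling only 2 genes of the list were called, and the adjusted p was 0.0996 for Id2, 0.174 for Id3 and 0.0658 for Id1. Id1 was at 12.2 TPM in experiment 12521 and at 2.78 TPM in experiment 12522, and without experiment 12521 its log2 fold change went from 1.85 to 0.803 (adjusted p = 0.338). After removal of experiment 12521 or 12522, 1 and 2 genes of the list were called, Id2 had an adjusted p of 0.119 and 0.241 and Id3 of 0.242 and 0.126.

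Several genes of multipotent progenitors fell at this step. Of 14 progenitor transcription factor genes tested, none rose and 8 fell (27.8% and 12.1% over all genes), with a median log2 fold change of -2.07. Some, such as Lmo2, passed the filter of 1 TPM only through the DN2b libraries, so the count and the median lean toward falls. With no filter on low values 10 of 19 genes fell, with a median of -1.78. Of 9 genes with a mean above 5 TPM over the 5 libraries, 4 fell, with a median of -0.415. Lyl1, a basic helix-loop-helix factor of hematopoietic stem and progenitor cells, fell from 129, 147 and 82.8 TPM to 2.58 and 1.01 TPM (log2 fold change -6.08, SE 0.389, adjusted p = 0.000100). Hhex, a homeobox factor, fell from 44.4, 50 and 37.3 to 2.46 and 1.45 TPM (log2 fold change -4.46). Spi1, which encodes the myeloid and progenitor factor PU.1, fell from 32.1, 52.0 and 42.8 to 6.68 and 5.54 TPM (log2 fold change -2.75, SE 0.232, adjusted p = 0.000239). Nfe2 fell from 385, 382 and 292 to 90.1 and 75.9 TPM, and Lmo2, already low in DN2b cells at 2.14, 3.32 and 2.79 TPM, fell to 0.336 and 0.197 TPM. Other genes of the list were not called. Erg was at 80.2 and 82.7 TPM in DN3a against 83.4, 114 and 66.3 TPM in DN2b libraries (adjusted p = 0.813), Mef2c was at 2.02 and 2.02 against 1.93, 2.68 and 1.84 TPM, and Bcl11a was not called either. The level of Erg was 0.998 and 1.60 TPM in the DN3b libraries. With the length trend removed, Bcl11a was lower with an adjusted p of 0.0177. With experiment 12521 or 12522 omitted, 6 and 8 genes of the list fell, and the adjusted p of Gfi1b was 0.0785 without experiment 12521.

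Genes shared with natural killer and innate lymphoid cells followed the progenitor factors. Of 12 genes tested, none rose and 8 fell, with a median log2 fold change of -1.87. Some, such as Zbtb16, passed the filter of 1 TPM only through the DN2b libraries, so the count and the median lean toward falls. With no filter on low values 19 genes of the list were tested, of which 2 rose and 8 fell, with a median of -0.563. Tyrobp, which encodes the adaptor DAP12 of activating receptors, fell from 48.5, 37.4 and 58.0 to 4.63 and 2.36 TPM (log2 fold change -3.79). Fcer1g, a signaling chain of Fc and natural killer receptors, fell from 16.6, 18.6 and 18.6 to 4.21 and 3.94 TPM. Nkg7, encoding a cytotoxic granule protein, was abundant in DN2b cells at 870, 725 and 806 TPM and fell to 271 and 246 TPM (log2 fold change -1.63). With experiment 12521 or 12522 omitted, 6 and 5 genes fell, and 1 gene (Ifng) was called higher without experiment 12522, at 9.86 TPM in experiment 12521 and at 0.0776 TPM in experiment 12522.

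Genes of DNA replication and mitosis were lower in DN3a cells. Of 30 DNA replication genes 23 fell and of 26 mitosis genes 23 fell, whereas none rose, and their median log2 fold changes were -0.953 and -1.51. Rrm2, encoding a subunit of ribonucleotide reductase, went from 251, 296 and 246 to 65.0 and 79.8 TPM (log2 fold change -1.87, SE 0.167, adjusted p = 0.000306), and Tk1, encoding thymidine kinase, from 236, 236 and 229 to 57.2 and 73.8 TPM. Among mitotic genes, Ccnb2, encoding cyclin B2, went from 251, 284 and 239 to 49.4 and 66.9 TPM (log2 fold change -2.16, SE 0.180, adjusted p = 0.000235), Birc5, encoding survivin, from 72.2, 82.8 and 65.6 to 13.8 and 19.4 TPM, and Ube2c from 258, 417 and 326 to 61.3 and 91.6 TPM. The DN3a libraries did not lack these transcripts, and experiment 12522 was the higher of both for each of these 5 genes. Mki67, a general marker of cycling cells, was not called at 47.8 and 76.8 against 85.8, 177 and 62.4 TPM (adjusted p = 0.208). It was called lower by edgeR on the recovered reads (adjusted p = 0.0321) and with the length trend removed (adjusted p = 0.00465). Levels were higher in the DN3b libraries, which had Mki67 at 261 and 315 TPM. Absence of CD71, the transferrin receptor, which is higher on dividing cells, was part of the DN3a gate, and the part of the gate in these values was not tested. In fits lacking experiment 12521 or 12522, 6 and 7 DNA replication genes and 6 and 12 mitosis genes fell, and the adjusted p of Plk1 was 0.0943 and 0.0712.

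The cyclin genes of G1 moved in opposite directions. Ccnd2, encoding cyclin D2, was at 301 and 357 TPM in DN3a and at 142, 191 and 133 TPM in DN2b libraries (log2 fold change 1.09), whereas Ccnd3, encoding cyclin D3, which is required for the expansion of thymocytes after β-selection, was at 257 and 222 against 421, 642 and 484 TPM (log2 fold change -1.09). Of 18 genes of G1 tested, 3 (Ccnd2, Cdkn1a and Rbl2) rose and 7 fell. The inhibitor gene Cdkn1b was not called, at 114 and 105 against 106, 101 and 86.2 TPM, and its direction turned from 0.167 to -0.137 with median scaling. Without experiment 12521 or 12522, none of the list rose and 1 gene fell, and the adjusted p was 0.0668 and 0.109 for Ccnd2 and 0.0777 and 0.119 for Ccnd3.

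Histone genes and other RNA without a poly(A) tail were lower in DN3a to a degree not seen for the replication genes. Replication-dependent histone mRNA ends in a stem-loop, and the RNA components of RNase MRP (Rmrp) and RNase P (Rpph1) and the Cajal body RNA Scarna2 are not polyadenylated either. Of 57 histone genes tested, 51 fell and 1 (Hist2h3c1) rose, with a median log2 fold change of -4.81. Their summed level was 226 and 170 TPM in DN3a and 2892, 1535 and 2240 TPM in DN2b libraries. Rmrp was at 3.10 and 1.36 against 1705, 201 and 1398 TPM, Rpph1 at 22.3 and 10.1 against 1688, 409 and 1806 TPM and Scarna2 at 6.98 and 6.14 against 302, 119 and 253 TPM. Small RNA as a whole did not follow, as 14 of 90 small nucleolar and Cajal body RNA features tested rose and 11 fell. The summed histone level was also low in the DN3b libraries, at 577 and 528 TPM, in which Mki67 was high, and it was 583 and 860 TPM in the Rag2(-/-) DN3a libraries, in which Rmrp was at 601 and 950 TPM and Mki67 at 4.29 and 3.91 TPM. The stage and the way these libraries were made cannot be told apart, for these features or for the other genes compared. The experiment numbers of the DN3a libraries (12521 and 12522) lie apart from those of the DN2b libraries (14590, 14595 and 14597). The labels do not say which libraries were made together. Histone genes made up 47 of the 295 lower genes past the thresholds.

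**Figure D3:**
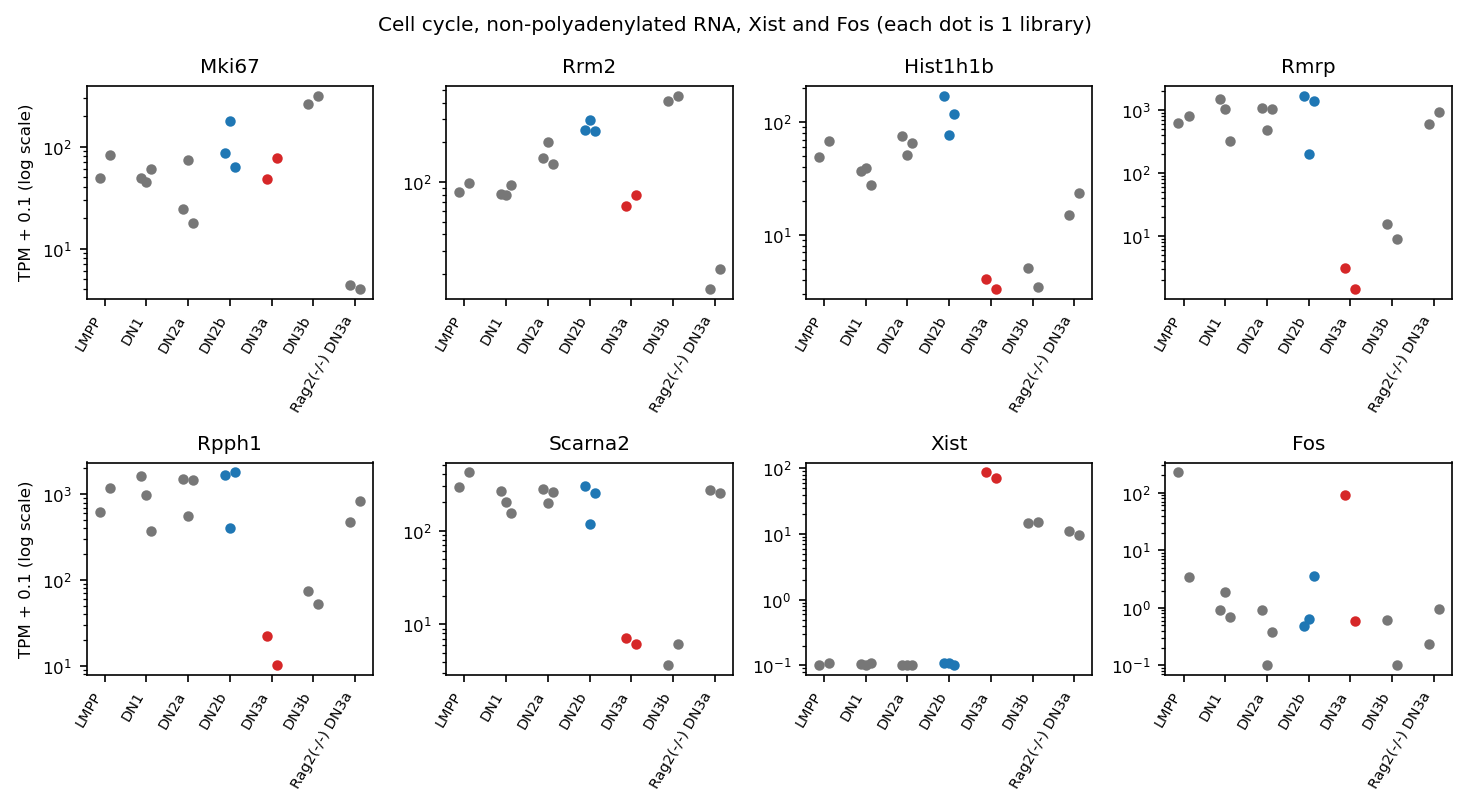
Levels of 8 genes in the 17 lymphoid libraries, with TPM + 0.1 on a log scale (vertical axis) by cell type (horizontal axis) and 1 dot per library (blue, DN2b; red, DN3a; grey, other cell types). The DN3a and DN3b libraries have low Hist1h1b, Rmrp, Rpph1 and Scarna2, Xist is near 0 in LMPP to DN2b libraries, and Fos is at 92.0 TPM in 1 of the 2 DN3a libraries and at 0.492 TPM in the other.

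Genes of ribosome biogenesis were higher and ribosomal protein genes in part lower in DN3a cells. Of 24 ribosome biogenesis genes tested, 19 rose and none fell, with a median log2 fold change of 0.724, and none of them was past the thresholds. After median scaling 10 rose, and without experiment 12521 or 12522 the number was 2 and 0. Of 82 ribosomal protein genes, which are short, 2 (Rpl23 and Rpl29) rose and 31 fell, with a median of -0.431. In the shortest of 10 groups of all genes by length, 305 of 1144 genes were lower and the median was -0.296. The summed level of ribosomal protein genes was 107200 and 104600 TPM in DN3a and 169300, 124600 and 168800 TPM in DN2b libraries. The part of gene length in this difference was not tested. Among 24 chromatin and DNA methylation regulators 10 rose and 1 (Hmga1) fell, with a median log2 fold change of 0.506. Smarca4, which encodes the ATPase Brg1 of the BAF chromatin-remodeling complex, was at 1142 and 1120 TPM in DN3a and at 289, 475 and 351 TPM in DN2b libraries (log2 fold change 1.64, SE 0.212, adjusted p = 0.00135). Without experiment 12521 or 12522 its adjusted p was 0.0548 and 0.0595, and 1 and 0 regulators were called higher. Without DN2b experiment 14595 16 regulators rose, and with median scaling 7 rose and 4 fell. With the length trend removed 4 rose and 4 fell and the median was 0.037, beside 19.6% higher, 19% lower and a median of 0.051 over all genes.

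Gene length moved with these values. The median log2 fold change of genes in 10 groups of increasing length went from -0.296 in the shortest to 0.577 in the longest genes, and 96 of 1144 genes of the shortest group were called higher compared with 482 of 1144 genes of the longest. The DN2b libraries also differed among themselves, since experiment 14597 deviated by 0.189 in the shortest and -0.508 in the longest group, whereas experiment 14595 deviated by -0.043 and 0.096. With this trend removed from each library, 2238 of 11438 genes with a known length (19.6%) were higher and 2178 (19%) lower, with 2.1% and 3.14% past the thresholds. The genes past the thresholds were little affected in direction, as 358 of 361 higher and 281 of 282 lower genes with a length were still called.

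**Figure D4:**
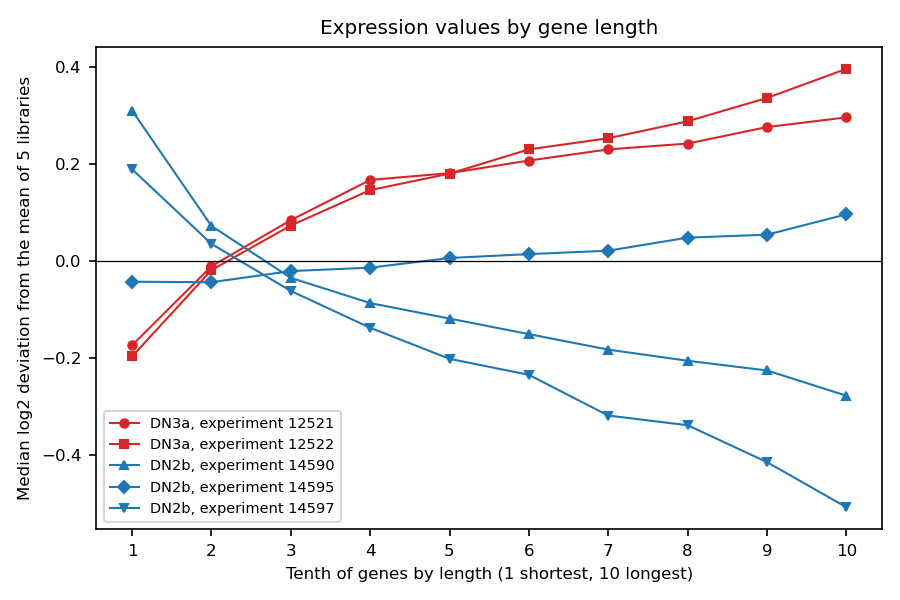
Median log2 deviation of each library from the mean of the 5 libraries (vertical axis) by group of genes from shortest to longest (horizontal axis), with 1 line per library (red, DN3a; blue, DN2b). Both DN3a lines climb from -0.174 and -0.197 to 0.296 and 0.396, and the DN2b line of experiment 14597 falls most, to -0.508.

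Receptors for cytokines and chemokines changed gene by gene. Of 18 cytokine and growth factor receptor genes tested, 5 rose and 4 fell, beside 27.8% higher and 12.1% lower over all genes. Il7r, encoding the receptor chain for the survival cytokine IL-7, was at 81.0 and 84.3 against 64.4, 63.5 and 59.0 TPM and was not called (adjusted p = 0.0566), although its libraries did not overlap. Without DN2b experiment 14595 its adjusted p was 0.0269. Il4ra, encoding the IL-4 receptor chain, fell from 38.9, 43.5 and 27.4 to 7.08 and 4.28 TPM (log2 fold change -2.68, adjusted p = 0.000547). Of 12 chemokine receptor and homing genes, 4 rose and 3 fell, beside the same shares over all genes. Ccr9, the receptor for the thymic chemokine CCL25, rose from 7.90, 6.98 and 14.4 to 84.5 and 70.5 TPM (log2 fold change 3.05, SE 0.306, adjusted p = 0.000476). The integrin β7 gene Itgb7 fell from 63.3, 75.9 and 58.9 to 9.55 and 3.74 TPM, whereas Itgae, the α-chain that pairs with β7, rose from 0.571, 0.666 and 0.590 to 7.93 and 9.16 TPM. Without experiment 12521 or 12522 the cytokine receptor calls were 1 and 0 higher and 2 lower in both cases, those of the chemokine list 2 higher and 1 lower, and without DN2b experiment 14590 only 1 cytokine receptor gene was higher. With median scaling 2 cytokine receptor genes rose and 6 fell.

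Genes of survival and metabolism changed one by one. Of 13 genes of the Bcl2 family tested, 4 rose and 1 (Bik) fell, beside 27.8% higher and 12.1% lower over all genes. Bmf, which encodes a proapoptotic BH3-only protein, rose from 7.02, 8.50 and 9.08 to 79.9 and 106 TPM (log2 fold change 3.48, SE 0.199, adjusted p = 6.55e-05), whereas the antiapoptotic Bcl2 was not called at 76.0 and 70.3 against 74.1, 98.1 and 56.7 TPM. With the length trend removed Bcl2 was called lower (log2 fold change -0.547, adjusted p = 0.0131), and with median scaling 4 genes of the family rose and 4 fell. Of 22 genes of glycolysis and nutrient transport, 3 rose and 3 fell, with a median log2 fold change of 0.058. Ldhb, a lactate dehydrogenase subunit gene, rose from 37.2, 34.5 and 54.4 to 233 and 261 TPM (log2 fold change 2.58). Several genes of this list, such as Gapdh, have near-identical copies, so their levels are uncertain.

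Immediate-early genes, which respond within minutes to receptor signals, differed between the DN3a libraries. Of 22 genes tested, 10 rose and 2 (Klf2 and Ier3) fell, with a median log2 fold change of 1.47. Members of the AP-1 family were high in experiment 12521 alone: Fos was at 92.0 and 0.492 TPM, Junb at 821 and 74.7 TPM and Jun at 409 and 56.8 TPM in the DN3a libraries, compared with at most 3.42, 54.5 and 30.2 TPM in DN2b libraries. Without experiment 12521, the adjusted p was 0.168 for Junb and 0.110 for Jun, and 5 genes of the list rose. Other members were high in both DN3a libraries. Egr1, a target of receptor signaling, was at 48.3 and 31.9 TPM against 1.19, 0.898 and 0.944 TPM (log2 fold change 5.16, SE 0.268, adjusted p = 4.98e-05). Nr4a1, encoding the orphan receptor Nur77, was at 42.3 and 27.0 against 3.41, 4.43 and 2.38 TPM and Btg2 at 318 and 353 against 87.8, 97.6 and 82.3 TPM. In Rag2(-/-) DN3a libraries Egr1 was at 0.547 to 0.997 TPM and Nr4a1 at 0 to 0.124 TPM, whereas Btg2 was at 399 to 569 TPM. In DN3b libraries Egr1 was at 28.4 to 37.1 TPM, Nr4a1 at 28.7 to 37.3 TPM and Btg2 at 74.05 to 86.6 TPM. The source of these differences was not tested. Klf2, a factor that restrains proliferation, fell from 65.5, 83.1 and 47.2 to 16.9 and 4.54 TPM, with an adjusted p of 0.0549 without experiment 12522. Without DN2b experiment 14590, 5 genes rose, and the adjusted p was 0.0603 for Jun and 0.129 for Junb. That of Junb was 0.104 without DN2b experiment 14595, 0.0529 without DN2b experiment 14597 and 0.0683 with median scaling.

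**Figure D5:**
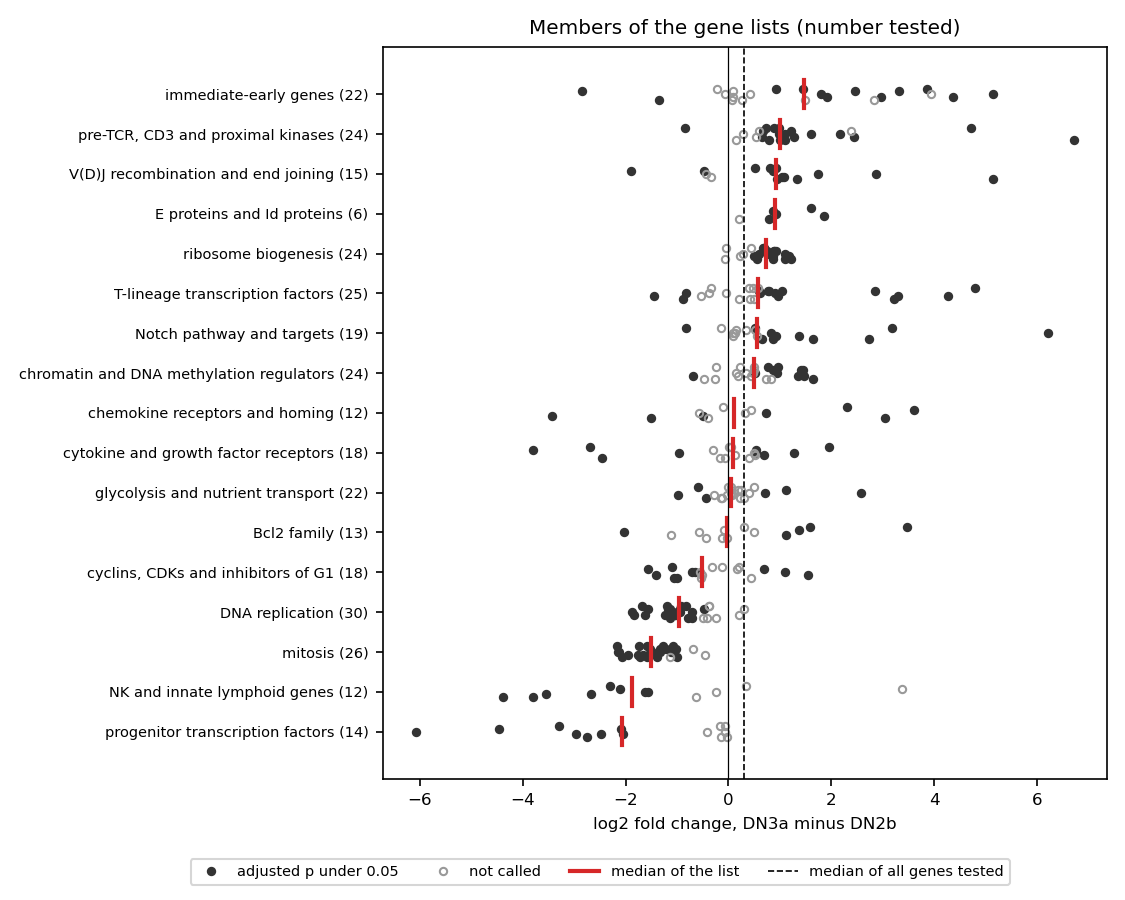
Log2 fold change of DN3a against DN2b (horizontal axis, on log2(TPM + 0.1)) of the members of 17 gene lists (vertical axis, with the number tested), with filled dots for an adjusted p under 0.05, open dots for other genes and a red bar for the list median. The medians run from -2.07 for progenitor transcription factors to 1.47 for immediate-early genes, and the dashed line is the median of all genes at 0.304.

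The largest increases were seen in genes that were nearly silent in DN2b cells. Fam163b was at 158 and 185 TPM in DN3a and at 0, 0.145 and 0.104 TPM in DN2b libraries, where 3 reads correspond to 0.132 TPM for a gene of median length in experiment 14595. Its log2 fold change of 9.97 was 7.32 with a pseudocount of 1 and 11.6 with one of 0.01. Similarly low levels in DN2b libraries were found for Slc5a9, encoding a sodium-coupled sugar transporter, at 119 and 108 TPM against at most 0.175 TPM, for the cytokine gene Il34, at 26.6 and 36.7 TPM against at most 0.0728 TPM, and for Atoh8, a basic helix-loop-helix factor, at 26.5 and 48.4 TPM against at most 0.0862 TPM. Scn4b, encoding a sodium channel subunit, rose from 0.856, 1.35 and 1.36 to 161 and 171 TPM (log2 fold change 7.03, SE 0.240, adjusted p = 1.49e-05), and the secreted protein gene Adamtsl2 rose to 34.2 and 31.9 TPM. Across the other wild-type stages the level of Fam163b did not exceed 0.151 TPM before DN3a, and in DN3b libraries it was 54.3 and 37.8 TPM. In DN3b libraries Slc5a9 was at 7.84 and 7.82 TPM and Scn4b at 5.29 and 3.23 TPM. Among abundant genes, the imprinted long noncoding RNA H19 was at 695 and 2047 TPM against 28.0, 30.9 and 32.7 TPM (log2 fold change 5.28), and in Rag2(-/-) DN3a libraries it reached 5207 and 4431 TPM. Aqp11, an aquaporin gene, rose from 228, 215 and 283 to 746 and 765 TPM.

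Xist was also among the largest changes. Xist, which silences an X chromosome in female cells, was at 87.5 and 70.7 TPM in DN3a and at most 0.00793 TPM in DN2b libraries. Y-linked genes were present in all 5 libraries, with Eif2s3y at 4.26 and 13.9 TPM in DN3a and at 18.3, 13.7 and 14.9 TPM in DN2b libraries. Xist was at 14.4 and 15 TPM in the DN3b and at 11.2 and 9.42 TPM in the Rag2(-/-) DN3a libraries. The sex of the animals, which the labels do not give, cannot be told apart from the stage for genes that depend on it.

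The strongest decreases included surface and secreted molecules of progenitors. Cd34, a sialomucin of hematopoietic progenitors, fell from 24.9, 27.5 and 29.2 to 0.360 and 0.531 TPM (log2 fold change -5.66, SE 0.230, adjusted p = 2.33e-05). The growth factor gene Fgf3 fell from 16.4, 18.9 and 15.3 to 0 and 0.0784 TPM and Ifitm1, an interferon-induced membrane protein gene, from 41.2, 29.0 and 30.4 to 0 and 0.334 TPM. S100a4, encoding a calcium-binding protein, fell from 52.4, 39.5 and 33.0 to 0.732 and 0 TPM, and Mpo, encoding myeloperoxidase, from 5.79, 9.46 and 20.5 to 0.287 and 0 TPM. All 5 genes were higher in at least 1 earlier stage than in DN2b cells: Fgf3 reached 319 TPM in DN2a libraries, S100a4 389 TPM and Mpo 1769 TPM in DN1 libraries, and Ifitm1 875 TPM and Cd34 928 TPM in LMPP libraries, the lymphoid-primed multipotent progenitors. Mdga1 and Tspan32 fell to at most 1.53 and 0.176 TPM. Among abundant genes that fell were Plac8, from 7263, 4218 and 6052 to 1177 and 937 TPM (log2 fold change -2.44), Lgals1, encoding galectin-1, from 4838, 4427 and 5429 to 1134 and 857 TPM (log2 fold change -2.31), Gpx1, a glutathione peroxidase gene, from 3647, 2418 and 3055 to 894 and 865 TPM and S100a10 from 1939, 1212 and 1465 to 278 and 237 TPM.

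Markers of other cell types that the gates could hold moved in both directions. The summed level of the 15 myeloid markers was 56.8 and 51.1 against 69.4, 51.0 and 69.5 TPM, and that of the 12 B-lineage markers 198 and 187 against 151, 140 and 149 TPM. For the 12 dendritic cell markers it was 131 and 113 against 59.5, 66.7 and 73.0 TPM. Ccr9 alone held 84.5 and 70.5 TPM of this sum in DN3a and 7.90, 6.98 and 14.4 TPM in DN2b libraries. The higher sum in DN3a rests on Ccr9. Of the myeloid markers 6 were tested, of which 1 (S100a9) was higher, at 2.36 and 0.767 TPM in DN3a and 0 in DN2b libraries, and 1 (Mpo) was lower. Of the B-lineage markers 6 were tested, of which Cd79b was higher and Blk lower, and Ms4a1 was listed at 0 in all 5 libraries. Of the erythroid markers only Klf1 was tested, at 0.555 and 0.732 against 1.27, 1.15 and 0.697 TPM, and Hbb-b1 and Hbb-bs were listed at 0. Of 8 dendritic cell and major histocompatibility complex class II markers 3 (Ccr9, Irf8 and Cd74) were higher and 3 (Itgax, H2-Ab1 and Flt3) lower. Markers of later CD4+CD8+ thymocytes were near the detection limit in DN2b cells and low in DN3a cells, with Cd4 at 2.08 and 2.55 against 0.438, 0.184 and 0.247 TPM and Cd8a at 2.59 and 1.57 against 0.519, 0.259 and 0.313 TPM. In all, 8 of 12 such markers were tested, of which 5 rose and Klf2 fell, beside 27.8% higher and 12.1% lower over all genes. Cd4 and Cd8a passed the filter of 1 TPM only through the DN3a libraries, so this count leans toward rises. Among γδ T cell markers, Maf, encoding a transcription factor, rose from 2.75, 2.61 and 2.47 to 8.59 and 9.99 TPM, and Zbtb16, encoding the innate-like T cell factor PLZF, fell from 2.61, 3.94 and 1.35 to 0.0208 and 0.0183 TPM. Of 3 stromal markers tested Epcam rose from 18.0, 15.7 and 23.9 to 148 and 172 TPM, whereas the epithelial genes Krt5 and Foxn1 did not reach 1 TPM in any of the 5 libraries. The part of contaminating cells in these results was not tested.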

How the data were processed

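The authors sequenced poly(A) RNA as 50-nt single reads, aligned them with TopHat 1.4.1 to mm9 and deposited 2 unlabelled values per gene and library on the TPM scale, which were averaged here. A deposited value of exactly 1 stands for 0 and was set to 0. The count and TPM columns that the authors deposited for 2 other samples gave implied gene lengths. Differences were tested in R 4.3.3 with limma 3.58.1 on log2(TPM + 0.1) over genes above 1 TPM in at least 1 library (two-sided, with a trend of the spread), and p-values were adjusted by the Benjamini-Hochberg method across these genes. All adjusted p-values of the report are from this fit unless another is named, and fold changes on this scale understate those of low genes. Since nothing says that libraries came from separate animals, p-values measure only the spread between these samples.

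Reads were recovered from the TPM steps, 71.6% to 73.5% of the values tested in the 5 libraries being whole within 0.02, and were tested with the quasi-likelihood test of edgeR 4.0.16. This test, the removal of a loess trend (span 0.3) with gene length and totals without histone and small RNA features were chosen after seeing the data. The members and gene lists were chosen with earlier results of these data known. Named genes were, per list, up to 6 members past the thresholds with the largest change and members with a defining role, together with the 12 largest changes and the 8 highest levels in each direction past the thresholds, leaving out histone genes, microRNA, small nucleolar RNA and unnamed gene models, and antigen receptor features as a group. Other genes, including those named because a count was 5 or fewer, and Ifng, Notch2, Rpl23 and Rpl29, were chosen after their values were seen. Some gene names carry marks for overlapping features whose meaning is not given in the sources used here. Among the genes with such a mark are Xist, H19, Notch1, Lck, Lyl1, Cd34, Ccnd3, Dclre1c and Tk1. The use of strand in counting is not given either, so overlapping and antisense genes are uncertain. Promoters are from RefSeq on GRCm38.p6. Leave-one-out fits, other scalings, filters and pseudocounts were the alternatives tried.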

Additional observations from a re-analysis of the deposited data

How the results depend on the processing

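The number of higher genes depended on scaling. At an adjusted p under 0.05, 3434 higher and 1492 lower genes became 1993 and 2482 with median scaling, 2279 and 2298 with quantile normalization, 2028 and 2310 by edgeR on recovered reads and 2238 higher genes with the length trend removed. Past the thresholds, higher genes numbered 280 with median scaling and 240 both by edgeR and with the length trend removed, compared with 433. A fold change above 2 instead of 3 gave 1893 genes, of which 1285 were higher and 608 lower. Leaving out 1 library gave 829 to 6217 genes in all, 434 to 4538 higher and 395 to 1679 lower, and 268 to 479 higher genes past the thresholds, where the lowest values were without DN3a experiment 12522 and the highest without DN2b experiment 14595. Each DN3a library left out leaves 1, which was assumed to vary like the DN2b libraries.

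The named genes gave 2429 values under the alternatives, of which 2312 kept direction and side of the threshold, 88 lost the call, 13 gained one and 16 turned direction. Those that turned were not called on the deposited scale. Tcf3 went to -0.091 with median scaling, -0.074 by edgeR and -0.145 with the length trend removed, and Cdkn1b to -0.137, -0.103 and -0.064 under these and -0.069 with quantile normalization. Bcl11a was 0.037 with the first row of each gene alone, and Bcl2 was 0.086 with the second row and 0.004 with the lower of both. Leaving out 1 library, log2 fold changes ranged from -0.198 to 0.119 for Gata3, -0.259 to 0.132 for Erg, -0.165 to 0.097 for Mef2c and -0.221 to 0.174 for Bcl2. The cause was not tested.

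With a replicate block, 2910 genes were higher and 1389 lower, with 421 and 298 past the thresholds. The labels do not say that the numbers pair the libraries, and 2 DN2b libraries carry the same number. Correlations of the deviations of same-numbered libraries were -0.028 to 0.013. They cannot decide on pairing, since the deviations of 2 DN3a libraries mirror each other. Among the named genes the block changed the call of Dntt (adjusted p = 0.0673). At median gene length, 3 reads correspond to 0.0876 and 0.0998 TPM in the DN3a libraries and to 0.1236 to 0.139 TPM in the DN2b libraries. Lower levels rest on fewer reads.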
